A study of Mus musculus with 6 samples.

Results

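Ms4a1, Cd79a, Cd79b, Cr2, Fcer2a, Blk, Pax5 and Cd22 are genes of B cells and of the lymphoid follicles in which these cells gather, and their expression was followed in mucosa from the terminal ileum. The 8 genes were taken by name, with every probe set that carries exactly one of these symbols, which gave 12 probe sets of the 34945 with a single symbol and 8 genes of 18193 on the array. The study set duoxa-/- mice against wt littermates housed in the same cage, all of them female, 3 months old and of the 129S6 strain. Each of the 3 cages held 1 litter and gave 1 duoxa-/- pool and 1 wt pool, each of RNA from 2 to 3 animals, so that 3 duoxa-/- and 3 wt pools were measured on 6 single-colour arrays. The duoxa-/- mice lack the maturation factors of the dual oxidases, epithelial enzymes that release hydrogen peroxide. Since animals were pooled before labelling, the spread between pools is the only replicate error, and 6 arrays limit how precisely any value is known.

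B cells recognise antigen through surface immunoglobulin, which signals inside the cell through CD79A and CD79B. Kinases such as BLK carry the signal on, CD22 dampens it, and complement receptor CR2 strengthens it. In the ileum, B cells lie in Peyer's patches and in isolated lymphoid follicles, where they are held by the chemokine CXCL13 and exposed to gut antigens, and from where they leave to become the IgA plasma cells of the lamina propria. A piece of mucosa therefore holds more or fewer B cells with the number of follicles it happens to include. In bulk tissue, fewer B cells and less RNA per B cell cannot be told apart.

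The promoters of Cd79a, Cr2 and Cd22 are shown because these genes stood for the patterns described below: Cd79a was lower in all 3 cages, Cr2 higher in all 3, and Cd22 of opposite sign between cages. Each runs 5′ to 3′ from 250 bases before to 50 bases after the annotated start, as given by RefSeq, and capitals mark motif matches on either strand.
Cd79a (GRCm38.p6, chr7:24897247-24897546, plus strand): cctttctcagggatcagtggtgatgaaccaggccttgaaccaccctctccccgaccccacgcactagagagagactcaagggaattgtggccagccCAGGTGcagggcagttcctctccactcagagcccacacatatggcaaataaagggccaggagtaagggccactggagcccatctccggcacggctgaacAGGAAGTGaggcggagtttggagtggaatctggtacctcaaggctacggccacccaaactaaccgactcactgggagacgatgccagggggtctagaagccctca
Cr2 (GRCm38.p6, chr1:195176670-195176969, minus strand): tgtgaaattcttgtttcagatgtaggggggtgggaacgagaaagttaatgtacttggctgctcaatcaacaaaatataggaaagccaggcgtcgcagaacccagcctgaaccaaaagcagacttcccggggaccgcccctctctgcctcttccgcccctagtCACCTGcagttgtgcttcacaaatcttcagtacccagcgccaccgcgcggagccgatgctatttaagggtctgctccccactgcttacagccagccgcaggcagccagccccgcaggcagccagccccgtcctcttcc
Cd22 (GRCm38.p6, chr7:30878979-30879278, minus strand): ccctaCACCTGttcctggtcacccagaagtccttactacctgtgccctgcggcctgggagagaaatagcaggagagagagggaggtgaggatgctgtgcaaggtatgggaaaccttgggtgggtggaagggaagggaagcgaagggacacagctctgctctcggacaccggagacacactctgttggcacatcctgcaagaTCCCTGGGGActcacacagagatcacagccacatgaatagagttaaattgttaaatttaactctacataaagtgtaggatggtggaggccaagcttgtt
RefSeq promoter entries were matched for 5 of the 8 genes, in 7 sequences; Ms4a1, Cd79b and Blk are named only. The motifs searched were the octamer ATGCAAAT, the EBF1 motif (TCCC, any 2 bases, GGGA), the ETS motif AGGAAGTG and the E-box CAGGTG read by E2A, the first of which is known from immunoglobulin promoters and the second and last of which are bound by factors of early B cell development. The ETS motif stood 55 bases before the start of Cd79a, and 4.07% of 32817 promoters of 300 bases held it. The EBF1 motif stood 49 bases before the start of Cd22, against 0.905% of all promoters. E-boxes lay in the windows of Cd79a, Cr2 and Cd22 and in 1 of 3 of Fcer2a, against 20.2% of all promoters, and the octamer in 0 of the 7 sequences, against 1.74%. No 2 matches overlapped in the sequences shown.

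Across the 6 arrays the medians lay between 6.55 and 6.6 on the log2 scale, and the correlation between arrays over all probe sets was 0.994 to 0.998. By its mean correlation (0.994) the wt pool of cage 1 was farthest from the rest. Duoxa2, a gene of the deleted locus, read 5.90, 5.55 and 5.92 in the duoxa-/- pools of cages 1, 2 and 3, against 8.81, 8.36 and 7.24 in the wt pools. Its groups did not overlap, yet its difference of -2.34 (SE 0.33) had a limma adjusted p of 0.794. With all 6 arrays the test thus did not call even Duoxa2, which limits what an absent call means for other genes. Duoxa1, its partner in the locus, was dim and overlapped, at 6.22, 5.92 and 6.33 in duoxa-/- pools, against 6.41, 6.26 and 6.25 in wt pools (difference -0.15, SE 0.12; limma adjusted p = 0.822). The sources used here do not say whether either probe set lies inside the deleted part. The ileal bile acid carrier Fabp6 read 14.66 to 14.83 in duoxa-/- pools and 14.64 to 14.77 in wt pools, near the top of the scale, in keeping with the labelled tissue. With limma, 0 of the 45037 probe sets differed between the genotypes at an adjusted p under 0.05 (0.0%, smallest adjusted p 0.794), and 5.98% had an unadjusted p under 0.05.

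Within this setting the B cell genes gave no called difference. Of the 12 probe sets, 0 passed limma's test with Benjamini-Hochberg adjustment over all probe sets, against 0.0% of all, and 2 had an unadjusted p under 0.05, those of Cr2 and the dimmer one of Cd22, both higher in duoxa-/- pools, against 3.35% of all probe sets in that direction. The difference was positive, higher in duoxa-/- pools, for 9 of 12 probe sets, against 50.4% of all probe sets. With each gene taken by the brightest of its probe sets, it was positive for 6 of 8 genes. The shares were 46.1% of all genes and 52.4% of those at or above the median level. The median log2 difference over the 8 genes was 0.05, beside -0.01 over all genes. By cage, this median took values of 0.42, -0.0071 and -0.075 in cages 1, 2 and 3, so the cages did not share it. Without the wt pool of cage 1 the median was 0.0014 with 4 of 8 genes higher, without the duoxa-/- pool of that cage 3 of 8 were higher, and without both pools the median was -0.039 with 3 of 8 higher.

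**Figure D1:**
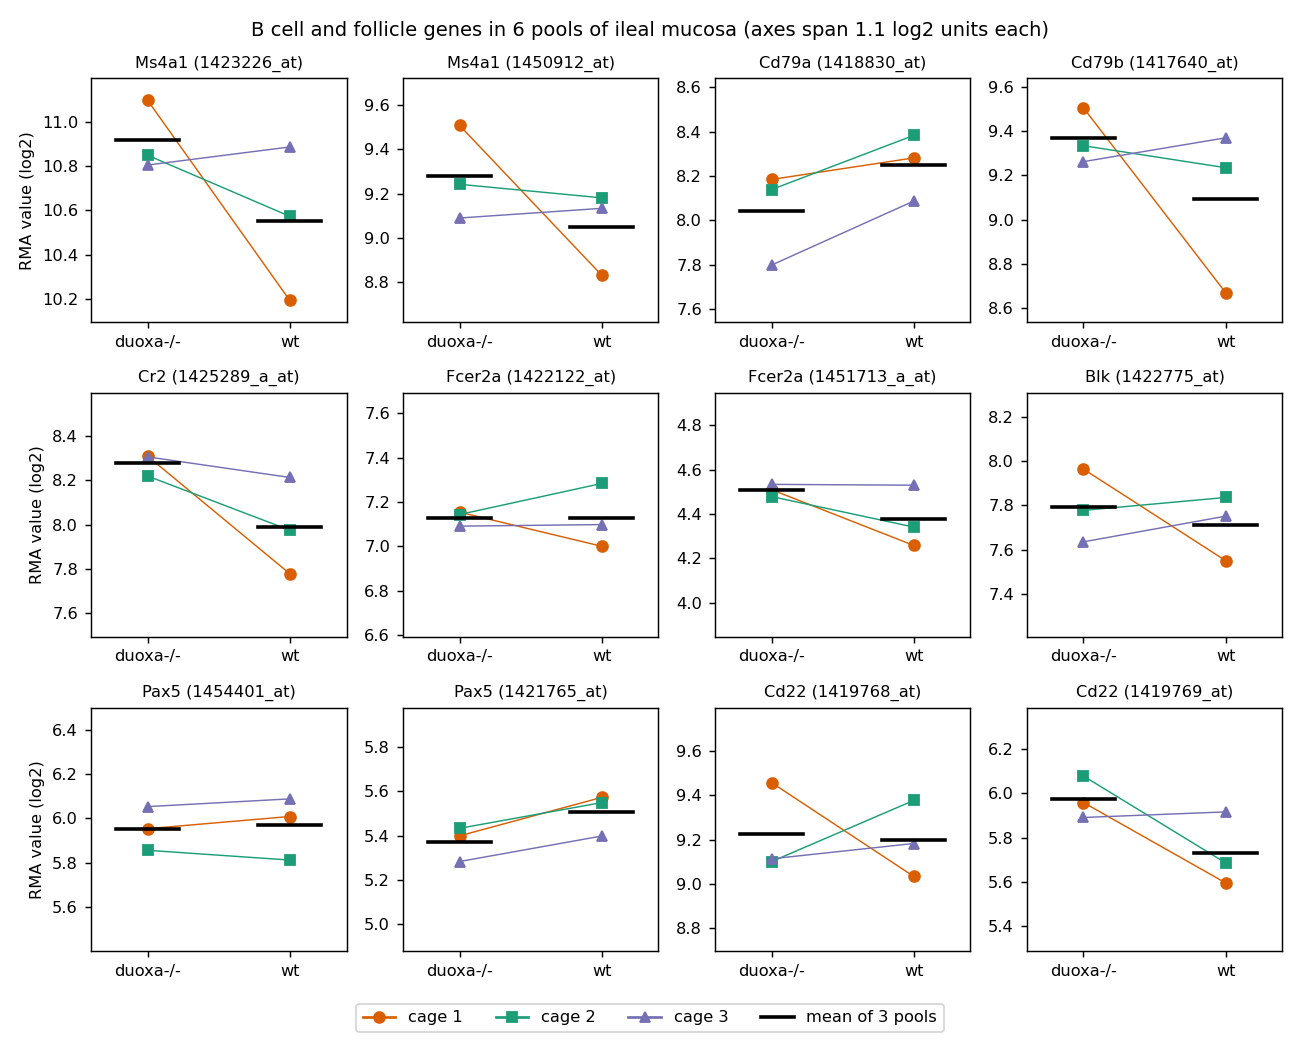
RMA values (log2, y axis) of the 12 probe sets in the duoxa-/- pools (left) and wt pools (right); each point is a pool, lines join the pools of a cage and black bars are means of 3 pools. The wt pool of cage 1 is the lowest of the 6 in 9 of 12 panels, and only in the panel of Cr2 do the genotypes not overlap.

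Among the surface molecules of mature B cells, Ms4a1 had the largest difference of the 8 genes. It encodes CD20, a membrane protein carried by B cells from the late precursor stage until they become plasma cells. Its brighter probe set (1423226_at) read 11.10, 10.85 and 10.80 in the duoxa-/- pools of cages 1, 2 and 3, against 10.19, 10.57 and 10.89 in the wt pools. The wt pools of cages 1 and 2 lay below every duoxa-/- pool and that of cage 3 between them, so the groups overlapped. The log2 difference was 0.37 (SE 0.17, 95% interval -0.01 to 0.74), or 1.29-fold, with a limma adjusted p of 0.794. The cages gave 0.90, 0.28 and -0.08 in their order, and without the wt pool of cage 1 the difference was 0.19. A further probe set of the same transcript (1450912_at) read 9.51, 9.24 and 9.09 in duoxa-/- pools, against 8.83, 9.18 and 9.13 in wt pools, a difference of 0.23 (SE 0.13). The pair had r = 0.87 (n = 6 pools), and both had their lowest value in the wt pool of cage 1 and their highest in its duoxa-/- pool. That r rests largely on the cage 1 pools. Among the pools of cages 2 and 3 the order differed. There the brighter was lowest in the wt pool of cage 2 (10.57) and the other in the duoxa-/- pool of cage 3 (9.09).

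Cr2 was the gene whose genotypes did not overlap. It encodes complement receptor CD21, which binds complement-tagged antigen on mature B cells and on the follicular dendritic cells that hold antigen in follicles. Its probe set (1425289_a_at) read 8.31, 8.22 and 8.31 in duoxa-/- pools, against 7.78, 7.98 and 8.21 in wt pools. The duoxa-/- pools lay close together, while the wt pools were spread more widely below them (SD 0.05 in duoxa-/- pools and 0.22 in wt pools, n = 3 each). The difference was 0.29 (SE 0.11, 95% interval 0.03 to 0.55), or 1.22-fold, with an unadjusted p of 0.0327 and an adjusted p of 0.794 by limma. It was 0.53, 0.24 and 0.09 in cages 1, 2 and 3, and 2 of 12 probe sets, with the dimmer one of Fcer2a, were higher in all 3 cages, against 15.3% of all. Of all probe sets, 6.25% had duoxa-/- pools that lay wholly above the wt pools, so 1 of 12 is near the background, and the opposite held for 0 of 12, against 5.36%. Without the wt pool of cage 1 the difference was 0.18.

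Fcer2a, the low-affinity IgE receptor CD23 of follicular B cells, hardly moved. Its brighter probe set (1422122_at) read 7.15, 7.14 and 7.09 in duoxa-/- pools, against 7.0, 7.28 and 7.10 in wt pools, a difference of 0.0023 (95% interval -0.21 to 0.21; limma adjusted p = 0.998). The wt pools lay on both sides of the duoxa-/- pools. A dimmer probe set (1451713_a_at), below the median of all probe sets at 6.58, read 4.51, 4.48 and 4.53 in duoxa-/- pools, against 4.26, 4.34 and 4.53 in wt pools, a difference of 0.13 (SE 0.09). The 2 probe sets did not follow each other (r = 0.076, n = 6 pools).

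The signalling chains of the B cell receptor had mean differences of opposite sign, neither of which passed the test. CD79A and CD79B pair in the membrane and carry the motifs that start signalling when antigen binds. Cd79b (1417640_at) read 9.50, 9.33 and 9.26 in duoxa-/- pools, against 8.67, 9.23 and 9.37 in wt pools. The wt pool of cage 1 stood well below the other 5, which intermingled. The difference was 0.28 (SE 0.17, 95% interval -0.11 to 0.66), or 1.21-fold, with a limma adjusted p of 0.796, and it was 0.83, 0.10 and -0.11 in cages 1, 2 and 3. Without the wt pool of cage 1 it was 0.06, and without both pools of that cage -0.0041.

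Cd79a (1418830_at) read 8.18, 8.14 and 7.80 in duoxa-/- pools, against 8.28, 8.38 and 8.09 in wt pools. Every duoxa-/- pool lay below the wt pool of its own cage, and both pools of cage 3 were the lowest of their genotype. The groups overlapped because the wt pool of cage 3 lay below the duoxa-/- pools of cages 1 and 2. The difference was -0.21 (SE 0.13, 95% interval -0.49 to 0.07), or 1.16-fold lower, with a limma adjusted p of 0.796. It was -0.10, -0.24 and -0.29 in cages 1, 2 and 3. With cage as a block its SE was 0.09 and its unadjusted p 0.0491, with an adjusted p of 0.740. In that limma fit 2 of 12 member probe sets, those of Cd79a and Cr2 (0.0308), had an unadjusted p under 0.05, against 6.6% of all. The dimmer one of Cd22 no longer did (0.0616). In limma's F-test between cages, Cd79a alone of the 12 had an unadjusted p under 0.05, against 5.55% of all probe sets, and its adjusted p was 0.886. After adjustment 0.00222% of all probe sets passed. It was 1 of 2 member probe sets lower in all 3 cages, with 1 of Pax5, against 14.3% of all probe sets.

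Blk and Cd22 act on the receptor from inside and beside it. BLK is a Src-family kinase of B cells, and Blk (1422775_at) read 7.96, 7.78 and 7.63 in duoxa-/- pools, against 7.55, 7.84 and 7.75 in wt pools. The duoxa-/- pool of cage 1 was the highest and its wt pool the lowest, with the other 4 between them. The difference was 0.08 (SE 0.11, 95% interval -0.18 to 0.34; limma adjusted p = 0.895), made of 0.41, -0.06 and -0.12 in cages 1, 2 and 3, and -0.0013 without the wt pool of cage 1. CD22 is a sialic acid-binding lectin that restrains receptor signalling, and its brighter probe set (1419768_at) read 9.46, 9.10 and 9.11 in duoxa-/- pools, against 9.04, 9.38 and 9.18 in wt pools. Here too both extremes came from cage 1. The difference was 0.03 (SE 0.13, 95% interval -0.26 to 0.32; limma adjusted p = 0.974), made of 0.42, -0.28 and -0.07 in the same order, and -0.06 without that wt pool. A dimmer probe set of the same transcript (1419769_at) read 5.96, 6.08 and 5.89 in duoxa-/- pools, against 5.60, 5.69 and 5.92 in wt pools, a difference of 0.24 (SE 0.10; unadjusted p = 0.0456, adjusted p = 0.794). Its level lay below the median of all probe sets, and it did not follow the brighter one (r = 0.089, n = 6 pools).

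Pax5, the transcription factor that fixes B cell identity and is shut off in plasma cells, was dim on both of its probe sets. The brighter (1454401_at) read 5.95, 5.86 and 6.05 in duoxa-/- pools, against 6.01, 5.81 and 6.09 in wt pools, a difference of -0.02 (95% interval -0.24 to 0.21; limma adjusted p = 0.982). The other (1421765_at) read 5.40, 5.43 and 5.28 in duoxa-/- pools, against 5.57, 5.55 and 5.40 in wt pools, a difference of -0.13 (SE 0.09). That one was lower in the duoxa-/- pool of each cage, by at most 0.17. Both lay below 6.58, the median of all probe sets, and RMA compresses differences of dim probe sets. They did not follow each other over the pools (r = -0.49, n = 6 pools).

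**Figure D2:**
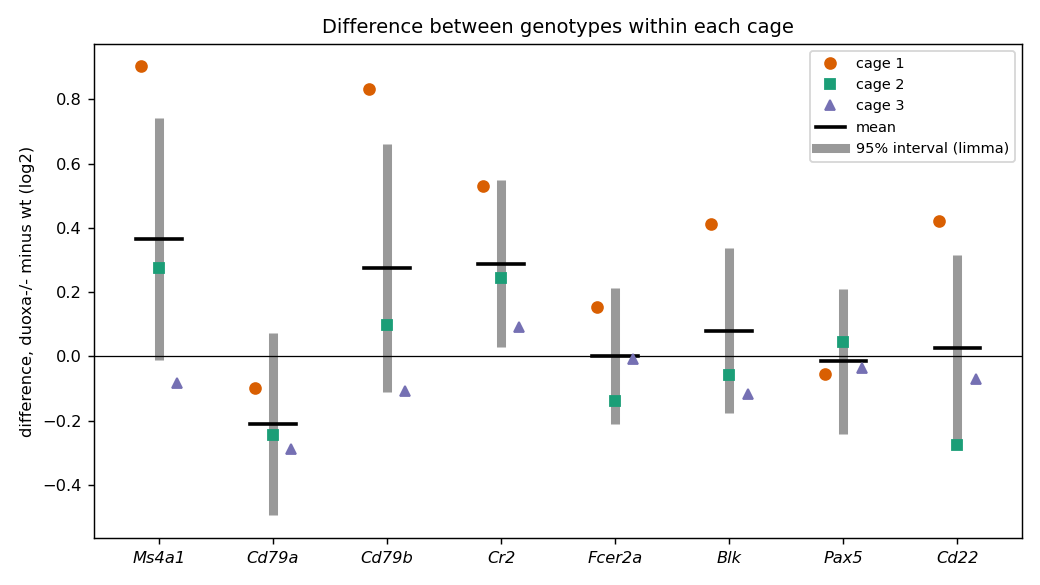
Log2 difference, duoxa-/- minus wt (y axis), of the 8 genes, each by its brightest probe set; symbols are cages, black bars the mean of 3 cages and grey bars its 95% interval from limma. Cage 1 gives the highest difference for all but Pax5, and the interval of Cr2 alone leaves out 0.

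The cage 1 pools set the ends of the range for most of these genes. The wt pool of cage 1 was the lowest of the 6 pools for 9 of 12 member probe sets, against 23.8% of all probe sets and 32.8% of those at or above the median level. Its cage mate, the duoxa-/- pool of cage 1, was the highest for 6 of 12, against 13.1% of all. In the same 6 probe sets, those of Ms4a1, Cd79b, Cr2, Blk and the brighter one of Cd22, both held at once, against 5.28% of all probe sets and 8.27% of those at or above the median level. The duoxa-/- pool was higher in 9 of 12 probe sets in cage 1, 7 of 12 in cage 2 and 2 of 12 in cage 3, against 50.4%, 49.0% and 51.6% of all and 59.2%, 47.4% and 56.4% of those at or above the median level. The wt pools had the larger SD in 8 of 12, against 60.9% of all and 66.6% of those at or above the median level. Each cage holds 1 pool per genotype, so a difference between cages in the effect of genotype was not tested. In the F-test between cages, with genotype in the fit, 0 of 12 passed (smallest adjusted p 0.886 by limma).

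The mean of the 8 genes, relative to its own mean over the pools, was 0.17, 0.02 and -0.03 in the duoxa-/- pools of cages 1, 2 and 3, against -0.22, 0.02 and 0.05 in the wt pools. The 4 pools of cages 2 and 3 thus lay within 0.1 of each other, and the cage 1 pools on either side. Each gene was set against the mean of the other 7 over the 6 pools. Cd79b (r = 0.93), Blk (0.89), Ms4a1 (0.85), Cd22 (0.70), Cr2 (0.67) and Fcer2a (0.54) followed it, and Cd79a (-0.28) and Pax5 (-0.29) did not. Among single pairs, Ms4a1 with Cd79b (r = 0.96) and with Cr2 (0.95) were closest, and Blk with Cd22 reached 0.90, while Fcer2a and Pax5 were the farthest apart (-0.75). These correlations describe 6 pools of which 2 carry most of the spread.

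Other genes of the B lineage showed the same course by cage. Of 36 listed genes 31 were measured, 26 were higher and 5 lower in duoxa-/- pools, and 0 passed the test in either direction. The median log2 difference was 0.16, beside -0.01 over all genes, of which 46.1% were higher. Over genes at or above the median level it was 0.0082, with 52.4% higher. In cage 1, 28 of 31 were higher with a median of 0.56, in cage 2 17 with 0.02, and in cage 3 10 with -0.02. Of the 11608 genes at or above the median level, 6759, 4751 and 6294 were higher in cages 1, 2 and 3. The wt pool of cage 1 was the lowest of the 6 for 25 of the 31, against 34.5% of the genes at or above the median level. Without it 18 of 31 were higher with a median of 0.05, and without both pools of cage 1 18 with a median of 0.0078.

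Ighm, the heavy chain of the IgM receptor, was among the 3 brightest of the list and read 11.74, 11.63 and 11.41 in duoxa-/- pools, against 11.18, 11.43 and 11.53 in wt pools (difference 0.21, SE 0.12; limma adjusted p = 0.795). Cd24a, a surface glycoprotein that epithelium carries as well, differed by -0.04 (SE 0.11). Cd74, the invariant chain of MHC class II, which other antigen-presenting cells and ileal epithelium can also make, read 12.84, 12.24 and 11.83 in duoxa-/- pools, against 13.12, 13.05 and 12.33 in wt pools. It was lower in each cage (difference -0.53, SE 0.27; adjusted p = 0.794), and so was opposite in sign to most of the list.

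The receptor pathway beyond the 8 genes was chosen for mention after its values were seen. Blnk, the adaptor downstream of the receptor kinases, differed by 0.23 (SE 0.15), Btk, the kinase that activates phospholipase C, by 0.17 (SE 0.11), and Plcg2, that phospholipase, by -0.06 (SE 0.12). In cages 1, 2 and 3 Blnk gave 0.70, 0.02 and -0.02, and Btk gave 0.48, 0.03 and -0.0035. Plcg2 gave 0.17, -0.31 and -0.05. Fcrla, an Fc receptor-like protein of germinal centre B cells, had the largest positive difference of the list at 0.53 (SE 0.21), made of 1.22, 0.07 and 0.30 in cages 1, 2 and 3. Fcrla, Cd37 (0.32, SE 0.12) and Bcl11a (0.25, SE 0.08) were the 3 of 31 whose groups did not overlap, all higher in duoxa-/- pools, against 924 of 18193 genes overall and 777 of the 11608 at or above the median level, and each had an adjusted p of 0.794 by limma.

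**Figure D3:**
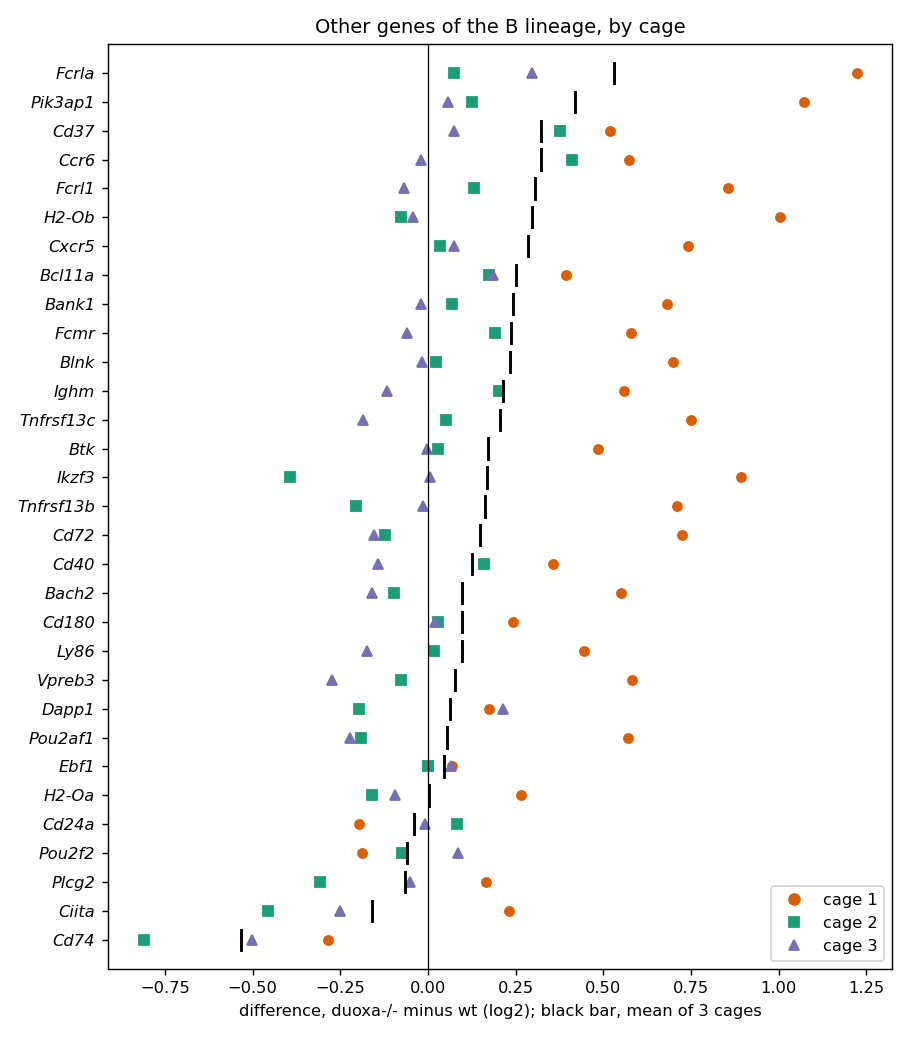
Log2 difference, duoxa-/- minus wt (x axis), of the 31 other B lineage genes by cage (symbols), with the mean of the 3 cages as black bars and genes ordered by it. In cage 1, 28 of 31 genes lie above 0, against 17 in cage 2 and 10 in cage 3.

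Genes of the germinal centre and of the follicle's stroma had smaller medians than the B lineage list. Of 10 measured germinal centre genes 7 were higher and 3 lower, with a median of 0.02 and 0 passing, and of 12 stromal and chemokine genes 8 were higher and 4 lower, with a median of 0.05 and 0 passing. Cxcl13, the chemokine that draws B cells into follicles, read 11.38, 11.21 and 11.25 in duoxa-/- pools, against 10.43, 11.27 and 11.28 in wt pools. The other 5 pools lay close together, with the wt pool of cage 1 well below them. The difference was 0.29 (SE 0.21; limma adjusted p = 0.810), and 0.0078 without that pool. Icos, the costimulator of follicular helper T cells, read 8.48, 8.60 and 8.22 in duoxa-/- pools, against 7.38, 8.50 and 8.07 in wt pools (difference 0.45, SE 0.25). Bcl6, the transcription factor of germinal centre B cells, differed by 0.23 (SE 0.11), and Rgs13, a regulator of G protein signalling found in germinal centre B cells and in tuft cells, by -0.06 (SE 0.20). Clu and Mfge8, which follicular dendritic cells make along with other cells, differed by 0.06 (SE 0.13) and 0.02 (SE 0.09).

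In the epithelium over follicles, 4 of 9 measured genes were higher and 5 lower (median -0.0068, mean 0.05, 0 passing). Its brightest members, Marcksl1 (-0.15, SE 0.10), Anxa5 (-0.0068, SE 0.09) and the M cell transcription factor Spib (0.07, SE 0.09), are not restricted to that epithelium. The next genes were chosen after their values were seen. Ccl20, a chemokine of this epithelium that draws CCR6-bearing lymphocytes, had the list's largest difference, at 8.90, 8.49 and 8.20 in duoxa-/- pools, against 7.76, 8.07 and 7.89 in wt pools. The groups did not overlap, the difference was 0.62 (SE 0.17; limma adjusted p = 0.794), made of 1.14, 0.42 and 0.31 in cages 1, 2 and 3, and it was 0.55 without the wt pool of cage 1. Gp2, the M cell receptor, was dim at 5.42 to 5.80 in duoxa-/- pools and 5.58 to 5.88 in wt pools.

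Markers of other cells moved with the same pools, and their part in the result was not tested. Relative to its mean over the pools, the smooth muscle list (11 of 11 measured) stood at -0.33, 0.05 and -0.09 in the duoxa-/- pools of cages 1, 2 and 3, against 0.44, -0.12 and 0.04 in the wt pools. It was thus highest in the wt pool and lowest in the duoxa-/- pool of cage 1, the mirror of the B cell genes (r = -0.92, rho = -0.71, n = 6 pools). Without those 2 pools, the farthest from the median, r was 0.52 over 4 pools. Acta2, smooth muscle actin, read 13.23, 13.43 and 13.35 in duoxa-/- pools, against 13.69, 13.27 and 13.45 in wt pools. All 11 genes were lower in duoxa-/- pools on average, with a median of -0.19 and 0 passing, and without both pools of cage 1 the median was 0.03. The cages did not share this: 0, 10 and 2 of 11 were higher in cages 1, 2 and 3 (medians -0.69, 0.20 and -0.09). Tagln (-0.17, SE 0.14) and Myl9 (-0.11, SE 0.15), contractile proteins of the same cells, followed Acta2.

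T cell genes (16 of 18 measured) ranged from -0.16 to 0.12 in duoxa-/- pools and from -0.25 to 0.32 in wt pools. As for the 8 B cell genes, the lowest pool was the wt pool of cage 1 and the highest duoxa-/- pool that of cage 1, and in that cage 12 of 16 were higher, with a median of 0.49. Unlike the 8 genes, the T cell genes swung as far the other way in cage 2, where 2 of 16 were higher (median -0.50). In cage 3, 3 of the 16 T cell genes were higher (median -0.22). Their highest pool of all was the wt pool of cage 2, where the 8 genes stood at 0.02 (r = 0.64, rho = 0.77, n = 6 pools; r = 0.47 over 4 pools without both of cage 1). Of the T cell genes 3 were higher and 13 lower in duoxa-/- pools, with a median of -0.10 and 0 passing, and Cd3d, a chain of the T cell receptor complex, differed by -0.03 (SE 0.19), Il7r, the interleukin receptor of naive and memory T cells, by -0.08 (SE 0.15) and Zap70, the kinase behind the T cell receptor, by -0.08 (SE 0.11). Plasma cell genes (12 of 14 measured) ranged from -0.08 to 0.18 in duoxa-/- pools and from -0.18 to 0.14 in wt pools, with both ends set by cage 1, where 11 of 12 were higher in the duoxa-/- pool. In cages 2 and 3, 1 and 4 of these 12 genes were higher. They followed the 8 genes with r = 0.85 (rho = 0.94), and with r = 0.45 over 4 pools without both of cage 1. The IgA heavy chain Igha read 14.70 to 14.78 in duoxa-/- pools and 14.68 to 14.80 in wt pools, close to the top of the scale, where an array has little room to show change. Jchain, which links IgA units, differed by 0.02 (SE 0.08) and Xbp1, a transcription factor of secretory cells, by 0.06 (SE 0.09), and 9 of the 12 plasma cell genes were higher and 3 lower (median 0.05, 0 passing).

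Macrophage and dendritic cell genes (14 of 15 measured) ranged from -0.21 to 0.08 in duoxa-/- pools and from -0.09 to 0.20 in wt pools, with r = 0.33. Of them 8 were higher and 6 lower (median 0.02, mean -0.04, 0 passing), and Lyz2, Csf1r and C1qa differed by 0.06 (SE 0.08), 0.07 (SE 0.12) and -0.07 (SE 0.10). Epithelial genes (13 of 13 measured), many of them also near the top of the scale, ranged from -0.03 to 0.02 in duoxa-/- pools and from -0.01 to 0.02 in wt pools. Of them 6 were higher and 7 lower, with Lyz1 at 0.03 (SE 0.08), Fabp2 at -0.09 (SE 0.09) and Krt8 at -0.01 (SE 0.08), and of the ileal enterocyte genes (7 of 8 measured) 3 were higher and 4 lower, with Fabp6 at -0.00087 (SE 0.09), Apob at 0.05 (SE 0.10) and Slc51a at -0.12 (SE 0.09). Red cell genes (3 of 6 measured) were below the median of all probe sets, with differences of -0.07 (Alas2), -0.04 (Slc4a1) and 0.0028 (Hba-a1). Of the liver and pancreas genes (7 of 8 measured), some of which enterocytes also make, 1 was higher and 6 lower, with Apoc3 at -0.19 (SE 0.24), Cela1 at 0.02 (SE 0.09) and Ttr at -0.11 (SE 0.30). Albumin (Alb), chosen after its values were seen, read 4.86 to 5.09 in duoxa-/- pools and 4.95 to 5.07 in wt pools. Over the 6 pools the mean of the other B lineage genes followed the 8 genes with r = 0.97 (rho = 0.83), that of the follicle stroma with 0.95 (rho = 0.94) and that of the germinal centre with 0.94 (rho = 0.77). Without both pools of cage 1 these were 0.49, 0.93 and 0.60 over 4 pools.

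**Figure D4:**
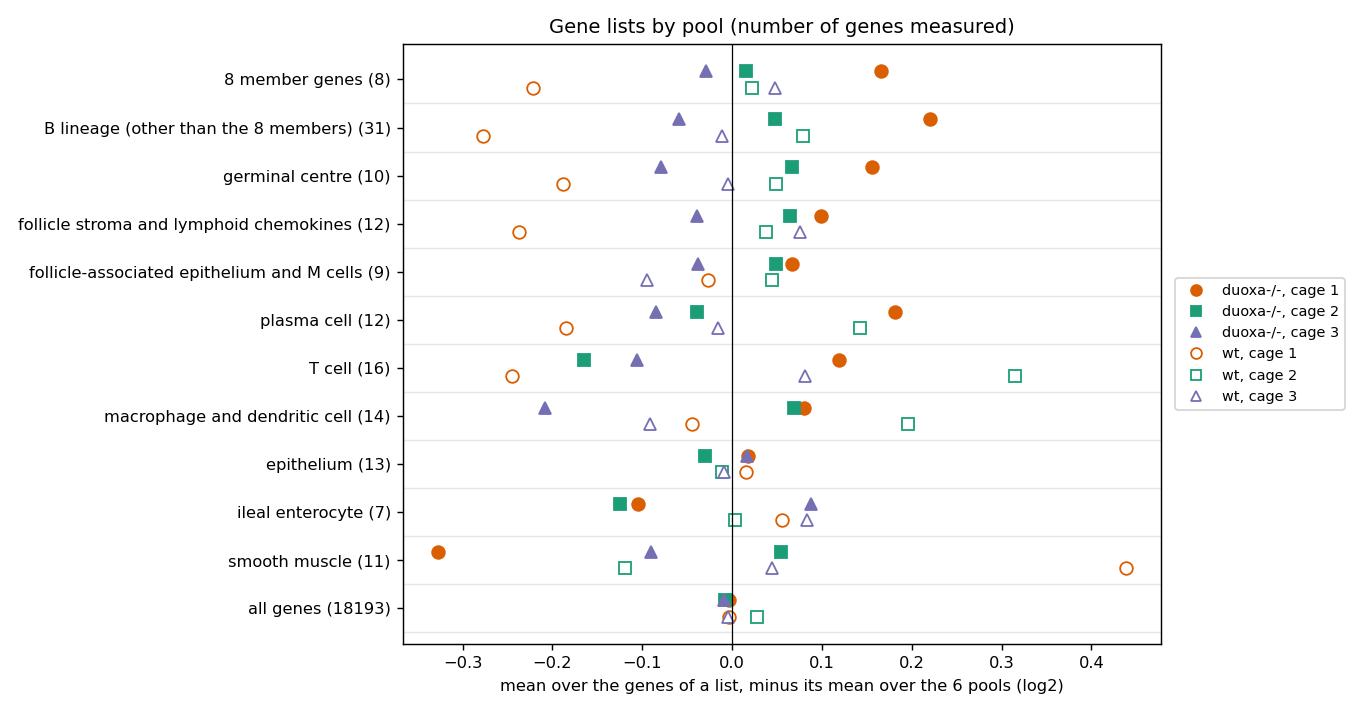
Mean in each pool, minus its mean over the 6 pools (log2, x axis), of the 8 genes, the gene lists and all genes. The red cell list and the liver and pancreas list are not drawn. Filled symbols are duoxa-/- pools, open symbols wt pools, and the number of genes measured stands in brackets. The wt pool of cage 1 is lowest for the 8 genes (-0.22) and highest for smooth muscle (0.44), and its duoxa-/- cage mate the reverse (0.17 and -0.33).

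Genes of like pattern were sought among 2411 genes at or above the median level with a range of at least 0.5 over the pools. The 10 with the highest correlation with the mean of the 8 genes were Phf6, H2-Ob, Rab30, Ap1s3, Ighv14-2, Zup1, Klhl6, Casp4, Arhgap30 and Mocs1, with r of 0.98 to 0.99 over 6 pools. H2-Ob is the beta chain of the class II modulator of B cells, Ighv14-2 an immunoglobulin variable segment and Klhl6 a protein needed in germinal centre B cells. H2-Ob read 9.50, 9.07 and 9.08 in duoxa-/- pools, against 8.50, 9.15 and 9.13 in wt pools. The 5 with the lowest correlation were Apbb1, Shisal1, Mrgprf, Sh3bgr and Kalrn (-0.98 to -0.97). Without both pools of cage 1, r ranged from 0.51 to 0.996 among the 10 and from -0.89 to 0.31 among the 5. Of the 31 other B lineage genes measured, 20 were among these candidates, and 15 of these had an r over 0.8, against 11.1% of all candidates. The wt pool of cage 1 was the lowest for 25 of the 31, and it was also the lowest for the mean of the 8 genes. The range limit and the r thus rest in part on the same pool, so this count is no separate support. It was not repeated without the cage 1 pools.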

How the data were processed

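Total RNA of ileal mucosa was treated with deoxyribonuclease, cleaned on silica columns and labelled with biotin, per the labels' protocols. The deposited table holds log2 values per probe set. According to the labels and per the submitters' processing notes, the authors summarised them with RMA (affy); the sources used here give no version or setting. RMA equalises the arrays and compresses differences of dim probe sets. Of 45101 rows, 64 control probe sets were left out; probe sets were named from the platform annotation, and all 8 members matched RefSeq by gene identifier and symbol.

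Genotypes were compared by two-sided limma (version 3.58.1, R 4.3.3) with lmFit and eBayes and Benjamini-Hochberg adjustment over 45037 probe sets (threshold 0.05) on the 6 arrays without a cage term, and cages with its moderated F-test. All adjusted p values are from limma. Differences are duoxa-/- minus wt, and SE and intervals are limma's. An exact permutation of 3 against 3 pools cannot give a p under 0.1. Where 1 value per gene was needed, the probe set with the highest mean was used. Tables were made with pandas 2.3.3 and figures with matplotlib 3.10.9.

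A cage is a litter per the design text, which pairs its pools. Cage mates' deviations from the mean of their genotype had an r over all probe sets of -0.15, 0.07 and 0.29 in cages 1, 2 and 3. Pools of different cages had -0.38 to 0.38, a range that holds all of these. Named are all member probe sets, the 3 brightest genes of a list, and genes of like pattern; others are marked. Members and lists were chosen with earlier results of these data known.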

Additional observations from a re-analysis of the deposited data

Results flagged for a closer look

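The difference between genotypes had opposite signs in cage 1 and in cages 2 and 3 for Blk, Cd22 and Fcer2a and for the mean of the 8 genes. It was 0.41 in cage 1 for Blk, against -0.06 and -0.12 in cages 2 and 3. For Cd22 (brighter probe set) it was 0.42, against -0.28 and -0.07, and for Fcer2a (brighter probe set) 0.15, against -0.14 and -0.0071. The mean of the 8 genes was higher by 0.39 in the duoxa-/- pool of cage 1. In cages 2 and 3, relative to its mean over the pools, it stood at 0.015 and -0.029 in the duoxa-/- pools. The wt pools of these cages stood at 0.022 and 0.047, so the opposite sign there rests on small differences. With 1 pool per genotype and cage, this difference between cages was not tested, and the signs were read after the values were seen.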

How the results depend on the processing

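A replicate block for cage changed no call: 0 probe sets passed (smallest adjusted p 0.740), 6.6% had an unadjusted p under 0.05, and differences are the same in this balanced design. The median of the 8 genes was 0.05 with the block too. Of 143 member differences under alternatives, 125 kept their sign, 18 turned and 0 passed (smallest adjusted p 0.424). Fcer2a turned to -0.015 with quantile normalization and -0.0085 with arrays centred on their medians. Leaving out a pool or a cage gave ranges of -0.074 to 0.080 for Fcer2a, -0.087 to 0.18 for Blk, -0.17 to 0.18 for Cd22, -0.094 to 0.044 for Pax5 and -0.0041 to 0.47 for Cd79b. Ms4a1 (0.10 to 0.59), Cr2 (0.17 to 0.40) and Cd79a (-0.29 to -0.09) kept their sign throughout. The median of the 8 genes then ranged from -0.039 to 0.16, and the B lineage genes higher in duoxa-/- from 18 to 28 of 31. Between genotypes 0 probe sets passed under all alternatives except without the wt pool of cage 3, when 1 did, that of Duoxa2. Between cages 1 probe set passed, an unnamed one; 0 did without the genotype term, 2 with 1 probe set per gene, 3 with arrays centred on their medians, 9 with a trend and robust prior, and 1 to 16 when a pool was left out. In all of these 0 member probe sets passed (smallest adjusted p 0.362). The cause of these shifts was not tested. Pax5 could not be fitted without dim probe sets. The dim probe sets of Fcer2a, Cd22 and Pax5 limit what can be read from them.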
